A study of Rattus norvegicus with 4 samples.

Results

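The genes described here encode signalling kinases: the MAP kinase cascade, AMP-activated protein kinase (AMPK), protein kinase A (PKA), protein kinase C (PKC), calmodulin-dependent kinases, PI3 kinases with Akt, and the ribosomal S6 kinase, with subunits, inhibitors and scaffolds of these enzymes. Members were all probe sets annotated to a single gene whose symbol begins with Mapk, Map2k, Map3k, Prka, Prkc, Camk, Pik3, Akt or Rps6k. This gave 108 of the 8799 probe sets on the array, and they read 60 of the 4737 genes named on it. The prefixes also took in Aktip, which encodes a protein that binds Akt and is no kinase. One probe set annotated to both Mapk8 and Mapk10 was left out.

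Total RNA of 2 sublines of the Dunning R3327 rat prostate tumour was measured on Affymetrix oligonucleotide arrays, with 2 arrays of the G line as controls and 2 arrays of the MAT-LyLu line. Per the labels, G does not metastasize and serves as the control, MAT-LyLu is highly metastatic, and the arrays of a line are duplicates; no treatment is named. Each group is thus a single cell line. No separate cultures are named, so a p-value here reflects array-to-array spread, which may be technical only.

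MAP kinases work in tiers: a MAP kinase kinase kinase phosphorylates a MAP kinase kinase, which phosphorylates the MAP kinase, which acts on other kinases and on transcription factors. PKA answers cyclic AMP, PKC diacylglycerol and in part calcium, and the calmodulin-dependent kinases calcium bound to calmodulin. PI3 kinases make membrane lipids that recruit Akt, and AMPK senses a shortage of ATP. Most of these enzymes are switched on by phosphorylation or by a second messenger, and RNA levels do not measure that activity. In tumour cells the ERK and PI3 kinase pathways are known for driving growth.

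Signals are in MAS5 units, the linear signal of a probe set, and differences are MAT-LyLu minus G on the scale log2(signal + 16), tested with limma over 6555 probe sets, and called at a Benjamini-Hochberg adjusted p under 0.05. Folds are taken on that scale, which understates the change of dim probe sets. Array medians ran from 2998 to 3156, and the highest signal was 64036 on G replicate 1 against 45582 to 47120 on the other 3 arrays. A background level, the 95th percentile of 23 control probe sets for bacterial, yeast and mouse sequences, lay between 1891 and 2311. It is no sign of expression to lie above it: leukocyte markers such as Ptprc and Cd8a and the muscle myosin gene Myh1 did so on all 4 arrays. Of 11 prostate epithelial markers 7 were measured, and Pbsn, Krt14, Krt19 and Epcam were under it on every array. Krt8 rose, the only call among the 4 tested; Krt5, above background on all 4 arrays, Krt18 and Krt19 did not pass (log2 differences 0.0037, 0.0066 and 0.23). All 8 fibroblast markers fell, with a summed signal of 145914 and 150810 in G and of 13488 and 13345 in MAT-LyLu. No endothelial, leukocyte or muscle marker passed. The part of the fibroblast marker change in the kinase results was not tested. The labels name each sample a cell line and name no mixture of cell types. Bulk RNA by itself cannot tell fewer cells of a type from less RNA per cell.

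Kinase genes differed between the lines in both directions. MAT-LyLu cells had more signal for Mapk6, Prkcd, Map3k12, Prkab1, Akt2, Map2k1 and Mapk12, and less for Camk1, Camk2d, Prkar2b and Map2k2. Prkaa2, the gene of an AMPK catalytic subunit, had a mean signal of 4180 in G and lay under background in MAT-LyLu, at least 1.98-fold lower. Of the 108 probe sets 83 passed the filter on low signals and were tested, and of these 13 were higher and 11 lower in MAT-LyLu. Over all tested probe sets 13.6% were higher and 20.1% lower, against 15.7% and 13.3% of the tested members, and in either direction 33.7% of all and 28.9% of the members were called, so the share called was no larger among the kinases. The difference between these shares was not tested. With quantile normalization the members' split was 17 higher and 9 lower. The split over all tested probe sets moved as well, from 891 higher and 1318 lower to 1114 and 1158. Of the 83 tested members 4 were called and at least 2-fold different, 3 higher and 1 lower. Over all tested probe sets 3.62% were called and at least 2-fold higher, and 4.74% were called and at least 2-fold lower, together 8.36%.

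By gene, 8 of the 60 had at least 1 probe set higher and none lower, 6 had the reverse, and Mapk14 had both. For 38 genes no tested probe set passed, and for 7 genes no probe set was tested. The median log2 difference over all 108 members was -0.0051, beside -0.021 over all 8740 probe sets that are no controls, and 54 members lay above 0 and 54 below. Aside from the 2 Aktip probe sets, at a median of 0.30, the family medians ran from -0.074 in the calmodulin-dependent kinases to 0.068 in the ribosomal S6 kinase. No family moved as a whole: each of those with a called probe set also held probe sets without a call, apart from Aktip, whose single tested probe set was called.

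**Figure D1:**
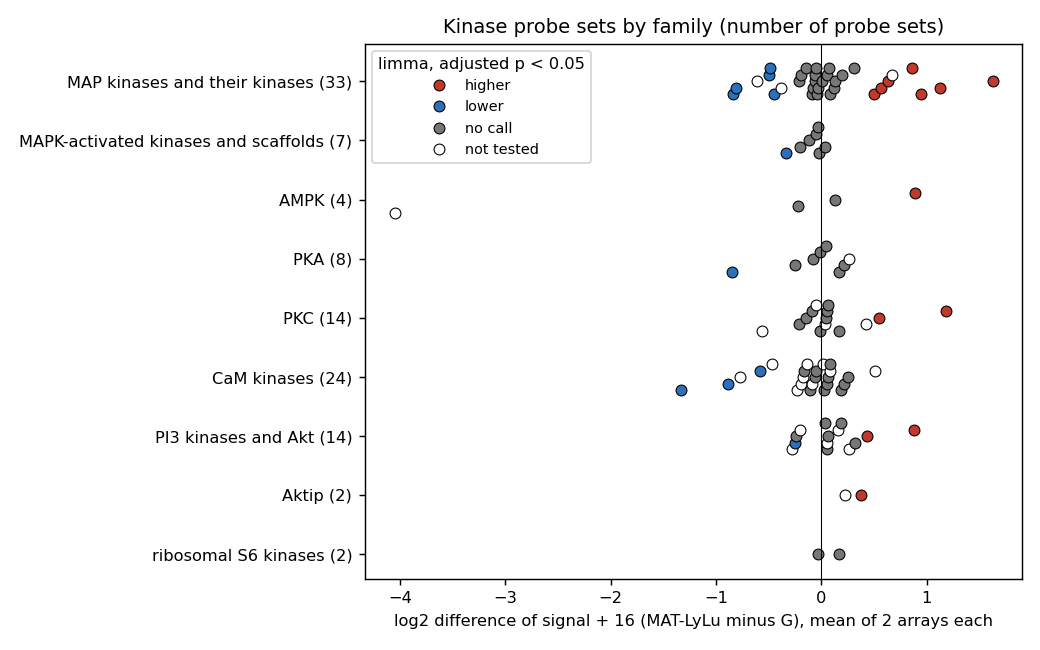
Log2 difference (MAT-LyLu minus G, horizontal axis) of all 108 kinase probe sets, 1 point each, by family, with the number of probe sets in parentheses. Red and blue points passed limma at an adjusted p under 0.05 as higher (13) or lower (11), grey points did not pass (59) and white points were left out by the filter on low signals (25). Prkaa2 is drawn at its fitted value of -4.05, far to the left, though it lay under background in MAT-LyLu, and most other points lie within 1 unit of 0.

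Among the MAP kinase kinase kinases, 1 of the genes tested changed. Map3k12, a kinase with a leucine zipper that acts upstream of JNK, measured 13719.9 and 11046 on the G arrays and 24305 and 23304 on the MAT-LyLu arrays. Both MAT-LyLu arrays stood well above both G arrays, a 1.93-fold rise (log2 difference 0.95, SE 0.12, adjusted p = 0.00056). The 3 probe sets of Map3k1, which encodes a kinase of the JNK pathway, had no call and log2 differences of -0.056, -0.049 and -0.15. Map3k3 (log2 difference -0.21, 95% interval -0.48 to 0.057) and the mixed-lineage kinase gene Map3k9 (-0.043, -0.25 to 0.17) had no call either. Map3k8 was under background on all 4 arrays, at 208 and 225 in G and 136 and 137 in MAT-LyLu, and was not tested.

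In the middle tier the MEK genes went in opposite directions. Map2k1 and Map2k2 encode MEK1 and MEK2, the closely related kinases that phosphorylate ERK. The brightest of the 3 Map2k1 probe sets measured 9426 and 8188 on the G arrays and 18502 and 13854 on the MAT-LyLu arrays. Both MAT-LyLu arrays were above both G arrays, though they lay well apart from each other, and the rise was 1.82-fold (log2 difference 0.86, SE 0.15, adjusted p = 0.0025). Its second probe set, at 10539 and 8594 in G and 14334 and 13788 in MAT-LyLu, rose 1.48-fold (adjusted p = 0.0061). The third measured 4621 and 5207 in G and 4617 and 5233 in MAT-LyLu. There the lines overlapped completely and the log2 difference was 0.0030 (95% interval -0.23 to 0.24), so the rise of Map2k1 was seen by 2 of 3 probe sets. By their names, these 2 are of the kind that can match several related transcripts, and the third is not.

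All 3 probe sets of Map2k2 were lower in MAT-LyLu. The brightest measured 21772 and 19667 on the G arrays and 12685 and 10987 on the MAT-LyLu arrays, a 1.75-fold fall (log2 difference -0.81, SE 0.11, adjusted p = 0.00078). The second measured 16025 and 13709.8 in G and 10626 and 10482 in MAT-LyLu and fell 1.40-fold (adjusted p = 0.0073). The third, at 16445 and 14054 in G and 9105 and 7881 in MAT-LyLu, fell 1.79-fold (adjusted p = 0.00082). The lines did not overlap on any of the 3. Averaged over 3 probe sets each, the log2 signal of Map2k1 minus that of Map2k2, set to a mean of 0 in G, was -0.046 and 0.046 on the G arrays and 1.17 and 1.21 on the MAT-LyLu arrays. The difference of 1.19 between the lines gave p = 0.33 in an exact 2-sided permutation test, the smallest p that 2 arrays against 2 allow. The opposite calls of the 2 genes already set the lines apart, so this test decides nothing. The other kinases of this tier did not pass. Map2k5, which acts on the MAP kinase encoded by Mapk7, had log2 differences of 0.077 and 0.20, and Map2k6, which acts on p38, had 0.12 (95% interval -0.27 to 0.50).

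Mapk6 showed the largest rise of any member. It encodes ERK3, an atypical MAP kinase that the MEK proteins are not known to activate. One of its 2 probe sets measured 2513 and 2357 on the G arrays and 7811 and 7287 on the MAT-LyLu arrays. The MAT-LyLu arrays were about equal and far above the G arrays, and the rise was 3.09-fold (log2 difference 1.63, SE 0.086, adjusted p = 4.0e-06). The other, brighter one measured 4361 and 4358 on the G arrays and 10259 and 8814 on the MAT-LyLu arrays and rose 2.18-fold (log2 difference 1.12, adjusted p = 6.6e-05). Both were designed from the same deposited sequence and are no independent measurements. Among all tested probe sets, 3.75% had a log2 difference of at least the size of the larger one. Mapk4, a related atypical MAP kinase gene, was under background on all 4 arrays (1786 and 1634 in G and 1795 and 1825 in MAT-LyLu) and had no call (log2 difference 0.083).

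The p38 genes Mapk12 and Mapk14 were read by 2 and 6 probe sets. The brighter probe set of Mapk12, which encodes p38 gamma, measured 1949 and 2154 on the G arrays and 3375 and 2992 on the MAT-LyLu arrays. A single G array was above background, both MAT-LyLu arrays were higher than either of the G arrays, and the rise was 1.55-fold (log2 difference 0.63, SE 0.10, adjusted p = 0.0019). Its dimmer probe set, with 1138 and 958 in G and 1975 and 1412 in MAT-LyLu, was not tested, and it passed with no filter (log2 difference 0.67, adjusted p = 0.016), with 1 of the 4 arrays above background.

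Mapk14, which encodes p38 alpha, gave no single answer. Numbered by brightness, its probe sets 2 and 4 fell. They measured 9027 and 7995 in G and 6582 and 5463 in MAT-LyLu (adjusted p = 0.011) and 7618 and 7517 in G and 5730.4 and 5342 in MAT-LyLu (adjusted p = 0.0039), falls of 1.42-fold and 1.37-fold. Probe set 5, at 2022 and 1852 in G and 2754 and 2735 in MAT-LyLu, rose 1.41-fold (adjusted p = 0.0034), with 1 G array under background. The lines did not overlap on any of these 3, so the probe sets of this gene disagree in direction beyond the spread between arrays. Probe sets 1 and 3 measured 7733 and 7650.4 in G and 8485 and 8393 in MAT-LyLu, and 7303 and 7489 in G and 6906 and 7005 in MAT-LyLu. Neither passed (log2 differences 0.13 and -0.088). Probe set 6 was under background at 1855 and 1450.0 in G and 1419 and 1109.8 in MAT-LyLu and was not tested. Without MAT-LyLu replicate 1 the fall of probe set 2 was no longer called (adjusted p = 0.066). By their names, 4 of the 6 are of the kind that can match several related transcripts.

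The JNK genes and Mapk7 did not pass. Mapk7, which encodes ERK5, measured 13083 and 13383 in G and 12498 and 12887 in MAT-LyLu on its brighter probe set (log2 difference -0.060, 95% interval -0.26 to 0.14), and the dimmer one had a difference of -0.084. Mapk8, which encodes JNK1, measured 3099.6 and 3561 in G and 3290.2 and 3206 in MAT-LyLu (95% interval of the log2 difference -0.25 to 0.19). The 3 probe sets of Mapk9, which encodes JNK2, had differences of both signs. The brightest measured 3921 and 3298 in G and 4419.6 and 4497 in MAT-LyLu and lay just outside the threshold (log2 difference 0.31, adjusted p = 0.050), the first member beyond it. It passed under all 3 scalings tried (adjusted p from 0.020 to 0.028). The second measured 3615 and 3391 in G and 3179 and 2956 in MAT-LyLu (log2 difference -0.19) and the third 2796 and 2721 in G and 2849 and 2893 in MAT-LyLu (0.057).

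Below the MAP kinases, Mapkapk2, a kinase that p38 activates, measured 7204 and 6349.9 on the G arrays and 5554 and 5154 on the MAT-LyLu arrays. Its fall of 1.26-fold (log2 difference -0.34, SE 0.095, adjusted p = 0.029) was small, and without G replicate 0 (adjusted p = 0.13) or MAT-LyLu replicate 1 (0.15) it lost its call. With quantile normalization its adjusted p was 0.050 and did not pass. None of the 4 probe sets of the related Mapkapk3 passed, with log2 differences from -0.21 to -0.025. The JNK scaffold genes Mapk8ip1 and Mapk8ip2 did not pass (log2 differences 0.036 and -0.032). In the MAP kinase family proper, 7 of 30 tested probe sets were higher and 5 lower, beside 13.6% and 20.1% over all tested probe sets; the difference was not tested.

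The promoters of 3 of these genes are shown because Mapk6 had the largest rise and the MEK genes moved apart. Each is the 250 bases before the gene's annotated start in RefSeq, build GRCr8. The capitals mark matches, on either strand, to the GC box GGGCGG, the CCAAT box CCAAT, the cyclic AMP response element TGACGTCA or the AP-1 site TGANTCA. Mapk6 lies at chr8:85050237-85050486, minus strand, Map2k1 at chr8:73650185-73650434, minus strand and Map2k2 at chr7:9260799-9261048, minus strand.
Mapk6: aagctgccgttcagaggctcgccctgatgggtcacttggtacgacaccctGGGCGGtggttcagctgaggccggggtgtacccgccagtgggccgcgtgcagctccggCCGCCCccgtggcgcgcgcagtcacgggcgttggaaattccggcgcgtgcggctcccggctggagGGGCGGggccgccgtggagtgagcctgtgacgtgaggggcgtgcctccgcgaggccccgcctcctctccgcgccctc
Map2k1: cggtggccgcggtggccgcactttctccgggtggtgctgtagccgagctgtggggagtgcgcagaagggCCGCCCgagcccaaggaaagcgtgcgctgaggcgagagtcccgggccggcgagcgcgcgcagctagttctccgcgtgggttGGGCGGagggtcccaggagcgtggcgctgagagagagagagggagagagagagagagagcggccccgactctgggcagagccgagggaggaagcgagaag
Map2k2: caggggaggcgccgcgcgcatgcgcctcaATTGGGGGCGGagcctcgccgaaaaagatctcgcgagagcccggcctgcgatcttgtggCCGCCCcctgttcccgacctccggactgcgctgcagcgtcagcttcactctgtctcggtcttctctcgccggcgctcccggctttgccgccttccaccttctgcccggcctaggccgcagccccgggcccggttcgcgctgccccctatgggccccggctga
All 3 held GC boxes, and Map2k2 alone of the 3 held a CCAAT box, which there abuts a GC box. Promoters were found for 52 of the 60 member genes, and 67.3% of them held a GC box, beside 53.0% of the promoters of all genes named on the array and 32.4% of all 27457 promoters in the table. A CCAAT box was in 13 of the 52 (25%) and in 35.8% of those of the array's genes. None of the 52 held the cyclic AMP response element, found in 2.32% of those of the array's genes, and 1 held the AP-1 site, found in 5.19%. Of the 8 genes called higher 6 held a GC box, and of the 6 called lower 3 did. These matches describe the letters of a window, and binding was not measured.

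**Figure D2:**
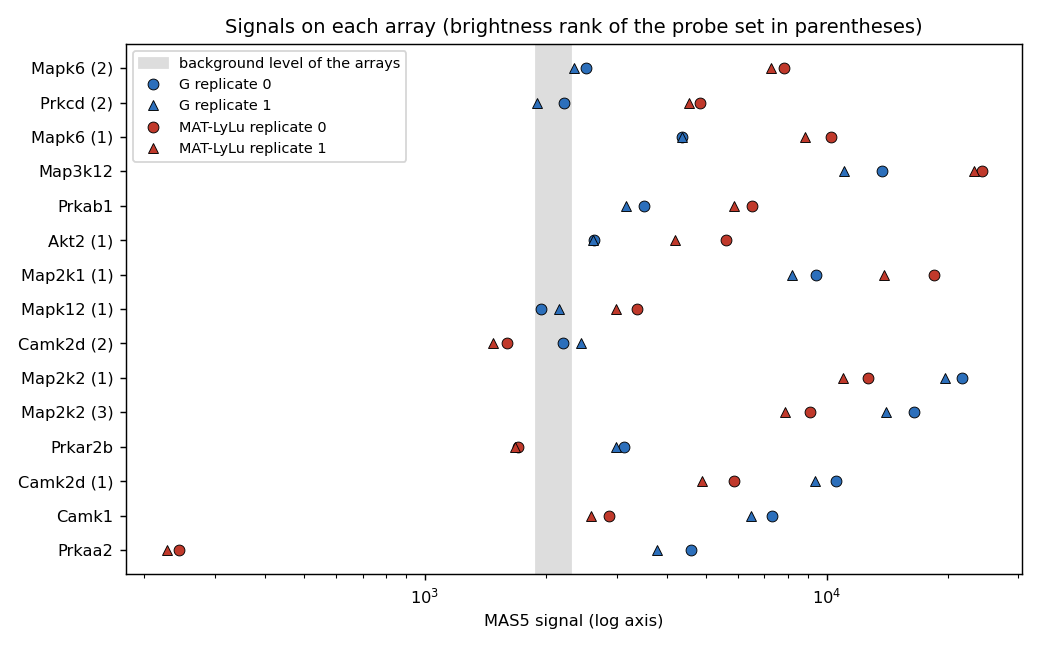
MAS5 signals (log axis) on each of the 4 arrays for Prkaa2 and the 14 called probe sets with an absolute log2 difference of 0.58 or more, ordered by difference, with the brightness rank among a gene's probe sets in parentheses. Blue marks the G arrays, red the MAT-LyLu arrays, and the grey band spans the background levels of the arrays, 1891 to 2311. In each row both red marks lie on one side of both blue marks, and the red marks of Prkaa2, Prkar2b and the second Camk2d probe set lie left of the band.

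The AMPK genes encode a catalytic alpha, a scaffolding beta and a nucleotide-binding gamma subunit, and they split. Prkaa2, one of the catalytic subunit genes, measured 4588 and 3772 on the G arrays and 244 and 228 on the MAT-LyLu arrays. Both G arrays were above background and both MAT-LyLu arrays were far under it, so the fall has a bound rather than a size, at least 1.98-fold. Its mean over the arrays was too low for the filter and it was not tested with the other members. With no filter it passed (adjusted p = 1.4e-07). The fitted log2 difference of -4.05 rests on signals under background and gives no size. Its promoter, at chr5:125108325-125108574, minus strand, is shown because the gene went from above background in G to far under it in MAT-LyLu, with capitals as above.
Prkaa2: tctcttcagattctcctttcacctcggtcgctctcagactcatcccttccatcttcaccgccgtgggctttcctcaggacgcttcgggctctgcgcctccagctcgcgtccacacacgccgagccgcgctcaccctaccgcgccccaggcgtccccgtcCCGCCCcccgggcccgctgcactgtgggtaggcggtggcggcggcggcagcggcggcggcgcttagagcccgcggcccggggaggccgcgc
It held a single GC box and none of the other motifs.

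Prkaa1, the other catalytic subunit gene, measured 2172 and 2123 in G and 2379 and 2314 in MAT-LyLu, near the background level, with no call (log2 difference 0.13, 95% interval -0.070 to 0.32). Prkab1, the gene of a beta subunit, measured 3513 and 3168 on the G arrays and 6512 and 5873 on the MAT-LyLu arrays. The lines were well apart, and it rose 1.85-fold (log2 difference 0.89, SE 0.095, adjusted p = 0.00022). Prkag1, the gene of a gamma subunit, measured 7352 and 7794 in G and 6596 and 6372 in MAT-LyLu, also with no call (log2 difference -0.22, adjusted p = 0.078). The median of the 4 was -0.048 and describes none of them.

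In PKA, 1 of 7 tested probe sets changed. Prkar2b, which encodes a regulatory subunit that holds the catalytic subunits inactive until cyclic AMP binds, measured 3122 and 2994 on the G arrays and 1703 and 1676 on the MAT-LyLu arrays. Both MAT-LyLu arrays were under background and both G arrays above it, a fall of at least 1.46-fold (log2 difference -0.85, SE 0.085, adjusted p = 0.00015). The other regulatory subunit genes did not pass. Prkar2a was nearly equal in both lines, at 3178 and 3182 in G and 3109 and 3177 in MAT-LyLu (95% interval of the log2 difference -0.20 to 0.17). Prkar1a (log2 difference 0.17, -0.064 to 0.40) and Prkar1b (0.046, -0.16 to 0.25) were bright in both lines.

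The catalytic subunit genes of PKA did not pass, and their probe sets disagreed in sign. For Prkaca the brighter probe set measured 17097 and 22913 in G and 16717 and 16548 in MAT-LyLu (log2 difference -0.25) and the dimmer one 8412 and 7557 in G and 9185 and 9354 in MAT-LyLu (0.22). Both were designed from the same deposited sequence. By its name, the dimmer one is of the kind that can match several related transcripts. The G arrays of the brighter one lay far apart, and without G replicate 0 it passed as lower (log2 difference -0.46, adjusted p = 0.0048). The dimmer one passed as higher under quantile, median and cyclic loess scaling (adjusted p = 0.039, 0.035 and 0.036). Prkacb measured 7499 and 6665 in G and 6614 and 6743 in MAT-LyLu on its brighter probe set (log2 difference -0.082). Its dimmer one was under background at 1087 and 944 in G and 1212 and 1233 in MAT-LyLu and was not tested (log2 difference 0.27).

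**Figure D3:**
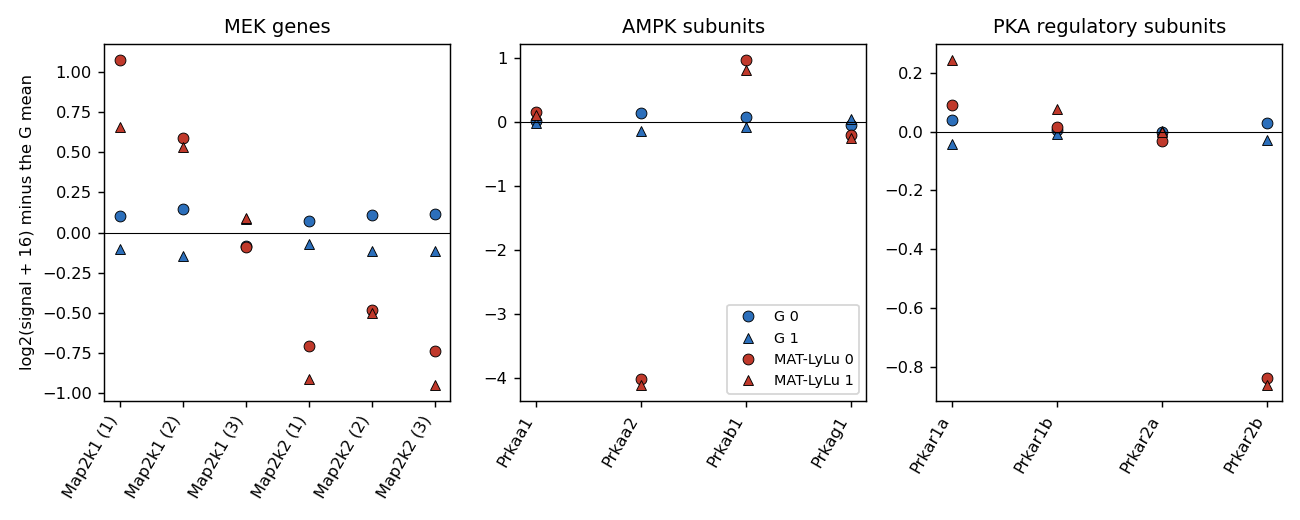
Log2(signal + 16) minus the mean of the G arrays, 1 mark per array, for the probe sets of Map2k1 and Map2k2, the 4 AMPK subunit genes and the 4 PKA regulatory subunit genes, each panel on its own vertical scale. Blue marks are G arrays and red marks MAT-LyLu arrays, with circles for replicate 0 and triangles for replicate 1. The red marks lie above 0 for Map2k1 probe sets 1 and 2 and for Prkab1, and below 0 for all Map2k2 probe sets, Prkaa2 and Prkar2b.

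Of the PKC genes, Prkcd alone was called. It encodes PKC delta, an isoform that answers diacylglycerol without calcium. One of its 2 probe sets measured 2218 and 1900.1 on the G arrays and 4832 and 4552 on the MAT-LyLu arrays. One G array was above background, both MAT-LyLu arrays were more than double either G array, and the rise was 2.27-fold (log2 difference 1.19, SE 0.10, adjusted p = 6.2e-05). The brighter probe set, designed from the same deposited sequence, measured 8996 and 7567 in G and 12355 and 11832 in MAT-LyLu and rose 1.46-fold (adjusted p = 0.0047). The 2 probe sets thus gave different sizes for the rise, log2 differences of 1.19 and 0.55. The calcium-dependent isoform gene Prkca, with 1771 and 1913 in G and 2142 and 2006 in MAT-LyLu, lay near the background level and had no call (log2 difference 0.17). The brightest probe set of Prkcb measured 3605 and 3462 in G and 3935 and 3432 in MAT-LyLu, with no call (95% interval -0.16 to 0.28).

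Prkce, another isoform gene that needs no calcium, was read by 4 probe sets with differences of both signs. By brightness they measured 3219 and 3341 in G and 3400.1 and 3471 in MAT-LyLu (log2 difference 0.067), 2385 and 1779 in G and 2043 and 2040.2 in MAT-LyLu (-0.013) and 1549 and 1671 in G and 1364 and 1407 in MAT-LyLu (-0.21), and none of these 3 passed. The dimmest, at 1198 and 895 in G and 689 and 703 in MAT-LyLu, was under background on every array and not tested. With no filter it passed as lower (log2 difference -0.56, adjusted p = 0.024). For Prkch the brighter probe set measured 3949 and 3916 in G and 4049 and 4045 in MAT-LyLu (log2 difference 0.041, 95% interval -0.14 to 0.22), and the dimmer one, at 346 and 399.7 in G and 310.4 and 413 in MAT-LyLu, was not tested. The atypical isoform gene Prkcz had log2 differences of -0.15 and -0.093 and did not pass. Of 10 tested PKC probe sets 2 were higher and none lower, beside overall shares of 13.6% and 20.1%, and so few probe sets make no result about the family. At an unadjusted p under 0.05 none was lower in limma either.

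Among the calmodulin-dependent kinase genes Camk1 and Camk2d were called, both lower in MAT-LyLu. Camk1, a kinase that the Camkk enzymes activate, measured 7294 and 6484 on the G arrays and 2872 and 2585 on the MAT-LyLu arrays. Its fall of 2.52-fold was the only called fall of 2-fold or more among the members (log2 difference -1.33, SE 0.098, adjusted p = 2.7e-05). Among all tested probe sets, 5.39% had a difference of at least that size. The activating kinase gene Camkk1 measured 5434 and 4765 in G and 4563 and 4498 in MAT-LyLu, with no call (log2 difference -0.17, 95% interval -0.38 to 0.048). Camkk2 was under background at 984 and 739.9 in G and 730.4 and 719.9 in MAT-LyLu and was not tested.

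Camk2d, which encodes the delta subunit of CaM kinase II, was read by 6 probe sets. The brightest measured 10520.3 and 9353 on the G arrays and 5863 and 4902 on the MAT-LyLu arrays, a 1.85-fold fall (log2 difference -0.89, SE 0.11, adjusted p = 0.00055). The second measured 2202 and 2441 in G and 1601 and 1478 in MAT-LyLu. It was above background in G alone and fell by at least 1.11-fold (adjusted p = 0.0024), a call lost with a floor at background (0.56). By their names, both of these probe sets are of the kind that can match several related transcripts. The other 4 were under background on all arrays and were not tested. In order of brightness they measured 1393 and 1360.3 in G and 907 and 707 in MAT-LyLu, 1001 and 1216 in G and 952 and 972 in MAT-LyLu, 507 and 773 in G and 791 and 1014 in MAT-LyLu, and 494 and 419 in G and 320.4 and 328 in MAT-LyLu. With no filter the brightest of these 4 passed as lower (log2 difference -0.77, adjusted p = 0.0029). Probe set 5 was the only one of the 6 with a positive difference (0.51), which did not pass with no filter (0.11).

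**Figure D4:**
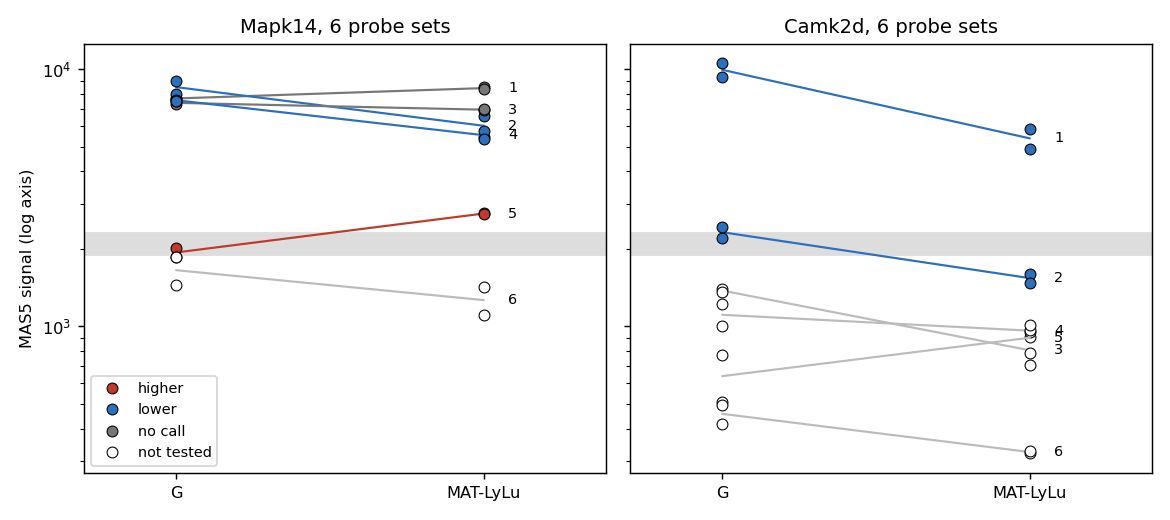
MAS5 signals (log axis) of the 6 probe sets each of Mapk14 and Camk2d, 1 point per array, with lines joining the means of the 2 arrays per line and numbers giving the brightness rank. Colours give the limma call and the grey band the background levels. For Mapk14, ranks 2 and 4 fall while rank 5 rises, and for Camk2d ranks 1 and 2 fall while the other 4 lie under the band.

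The other subunit genes of CaM kinase II did not pass. Camk2b, on its brighter probe set, measured 9318 and 8020.0 in G and 8090.3 and 7942 in MAT-LyLu (log2 difference -0.11), and on its dimmer one 408 and 348 in G and 417 and 383 in MAT-LyLu (0.080). Camk2a measured 1599 and 1394 in G and 1804 and 1752 in MAT-LyLu and 1015 and 942 in G and 884 and 842 in MAT-LyLu on its 2 probe sets, all under background and of opposite sign (0.25 and -0.18). The 3 probe sets of Camk2g, at 2016 and 1752 in G and 2296 and 2003 in MAT-LyLu, 1862 and 1481 in G and 1836 and 1650.2 in MAT-LyLu and 826 and 742 in G and 649 and 778 in MAT-LyLu, stayed near or under background, with log2 differences of 0.19, 0.067 and -0.14. The inhibitor genes Camk2n1, on its brighter probe set, and Camk2n2 were above background in both lines (log2 differences -0.050 and 0.028, 95% intervals -0.25 to 0.15 and -0.18 to 0.23). The dimmer Camk2n1 probe set was under background on every array and was not tested (log2 difference -0.084). Camkv, a kinase-like vesicle protein gene, measured 4899 and 5488 in G and 5056 and 5746 in MAT-LyLu, and 2309.9 and 2349 in G and 2208 and 2248 in MAT-LyLu on its dimmer probe set, with no call. Camk4 and Camk1g were under background on every array and did not pass. In all, 3 of 14 tested probe sets were lower, a share near the 20.1% over all tested probe sets. None was higher in limma, and none was higher at an unadjusted p under 0.05 apart from Camk2a (0.25, adjusted p = 0.10), which passed with median scaling and without G replicate 0 (both 0.043).

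Akt2, which encodes a kinase of insulin and growth factor signalling, was higher in MAT-LyLu on both of its probe sets. The brighter measured 2628 and 2627 on the G arrays and 5611 and 4186 on the MAT-LyLu arrays. The G arrays were equal and the MAT-LyLu arrays higher but spread, a rise of 1.84-fold (log2 difference 0.88, SE 0.13, adjusted p = 0.0015). The other measured 2401 and 2315 in G and 2865 and 3561 in MAT-LyLu and rose 1.35-fold (adjusted p = 0.021), a call lost without G replicate 1 (0.058) and without MAT-LyLu replicate 1 (0.13). Akt1, its relative, was bright in both lines, at 21461 and 18392 in G and 23409 and 26280.0 in MAT-LyLu and 21906 and 18985 in G and 23667 and 22726 in MAT-LyLu on its 2 probe sets. Neither passed (log2 differences 0.32 and 0.19, adjusted p = 0.075 and 0.24), but both did with quantile normalization (both 0.022) and without G replicate 0 (0.011 and 0.033).

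None of the PI3 kinase subunit genes upstream of Akt was called. The catalytic subunit genes Pik3cb and Pik3cd, and Pik3c3, the lipid kinase of endosomes and autophagy, were under background on all arrays and not tested. Pik3cb measured 1197 and 1160.3 in G and 1464 and 1372 in MAT-LyLu. The main regulatory subunit gene Pik3r1 measured 6726 and 6784 in G and 6044 and 5429.6 in MAT-LyLu, with no call (log2 difference -0.24, adjusted p = 0.077). Pik3r2, another regulatory subunit gene, had log2 differences of 0.032 and 0.049, and Pik3c2g had 0.067. Pik3ip1, which encodes a membrane protein that inhibits PI3 kinase, measured 4376 and 4193 on the G arrays and 3595 and 3588 on the MAT-LyLu arrays. Its 1.19-fold fall lay just inside the threshold (log2 difference -0.25, SE 0.080, adjusted p = 0.045), the weakest call of the members. It lost that call under all 3 scalings (adjusted p from 0.056 to 0.075), without the intensity trend (0.053) and without any single array (0.072 to 0.16).

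Rps6kb1, the ribosomal S6 kinase gene of the mTOR pathway, did not pass. It measured 4794 and 3729 in G and 4875 and 4619 in MAT-LyLu and 3238 and 3033 in G and 3022 and 3115 in MAT-LyLu on its 2 probe sets, with log2 differences of opposite sign (0.17 and -0.030). The lines overlapped on both, and without G replicate 0 the brighter one passed (log2 difference 0.35, adjusted p = 0.039). Aktip, the Akt-binding protein gene, measured 1658 and 1648 in G and 2206 and 2106 in MAT-LyLu on its brighter probe set and rose by at least 1.05-fold (adjusted p = 0.012). Both G arrays and 1 MAT-LyLu array were under background, and with a floor at that level the call was lost (0.58), as it was without MAT-LyLu replicate 0 (0.071).

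Genes that act around these kinases were read from 5 lists, each gene by its brightest tested probe set, with values as mean ± SD (n = 2). In the ERK, JNK and p38 list 6 of 27 tested genes were higher, 5 lower and 16 did not pass, with a median log2 difference of 0.069. Dusp6, a phosphatase that removes the activating phosphates of ERK, went from 1748 ± 164 to 19314 ± 1739.9, under background in G, and rose at least 9.31-fold (adjusted p = 1.8e-07). Jun, the transcription factor that JNK phosphorylates, rose 3.58-fold from 3626 ± 28.2 to 13021 ± 441 (adjusted p = 1.5e-06), on 3 of its 4 probe sets. Dusp5, another ERK phosphatase, rose 2.35-fold from 3446 ± 14.1 to 8109.8 ± 380.1 (adjusted p = 1.6e-05). The MAP kinase phosphatases of another class went apart, Ptprr 1.40-fold higher and Ptpn7 1.25-fold lower (adjusted p = 0.0022 and 0.041). The call of Ptpn7 was lost under quantile and median scaling, without G replicate 0 and without either MAT-LyLu array (adjusted p up to 0.17). Pebp1, which binds Raf and MEK and inhibits the cascade, fell 1.28-fold (adjusted p = 0.030), on 1 of its 2 probe sets, a call lost in 4 of 15 alternatives, among them median scaling, the replicate number as a block and leaving out either MAT-LyLu array (adjusted p up to 0.28).

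In the cyclic AMP list no gene was higher, 3 of 21 tested were lower and 18 did not pass, with a median of -0.089. The phosphodiesterase genes Pde7a (at least 1.24-fold, adjusted p = 0.00024, or 0.11 with a floor at background) and Pde4b (1.34-fold, adjusted p = 0.0093, on 2 of its 4 probe sets), which break down cyclic AMP, fell together with Adcy6, which makes it (1.39-fold, adjusted p = 0.0035). The PKA inhibitor gene Pkia did not pass (log2 difference -0.085). In the diacylglycerol and calcium list 5 of 23 were higher, 3 lower and 15 did not pass, with a median of 0.027. Marcks, a major PKC substrate, went from 1586 ± 6.97 to 12109 ± 1095, under background in G, and rose at least 5.84-fold (adjusted p = 2.4e-07), on 1 of its 6 probe sets, of which 4 were tested. Pcp4, a calmodulin-binding peptide, went from 4158 ± 404 to 615 ± 101, under background in MAT-LyLu, and fell at least 1.98-fold (adjusted p = 2.4e-06). It passed the filter on low signals only through G, and its adjusted p rests in part on signals under background. The phospholipase gene Plcd4, whose product makes diacylglycerol, rose 2.63-fold (adjusted p = 1.5e-05), and a single G array lay above background.

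In the PI3 kinase list 1 of 21 tested genes was higher, 5 lower and 15 did not pass, with a median of -0.039. Rheb, the GTPase that activates mTOR, fell 1.64-fold (adjusted p = 0.0011, on 1 of its 2 probe sets). Pip5k1c, which makes the lipid substrate of PI3 kinase, fell 1.56-fold, and Sgk1, a kinase related to Akt, rose 1.45-fold (adjusted p = 0.0013 and 0.0024). Of 3 tested AMPK targets and partners, the glucose transporter gene Slc2a4 fell 1.45-fold (adjusted p = 0.0019) and Acaca, the acetyl-CoA carboxylase that AMPK inhibits, rose 1.30-fold (adjusted p = 0.011, or 0.056 without MAT-LyLu replicate 1). These shares can be read against 13.6% higher and 20.1% lower over all tested probe sets.

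**Figure D5:**
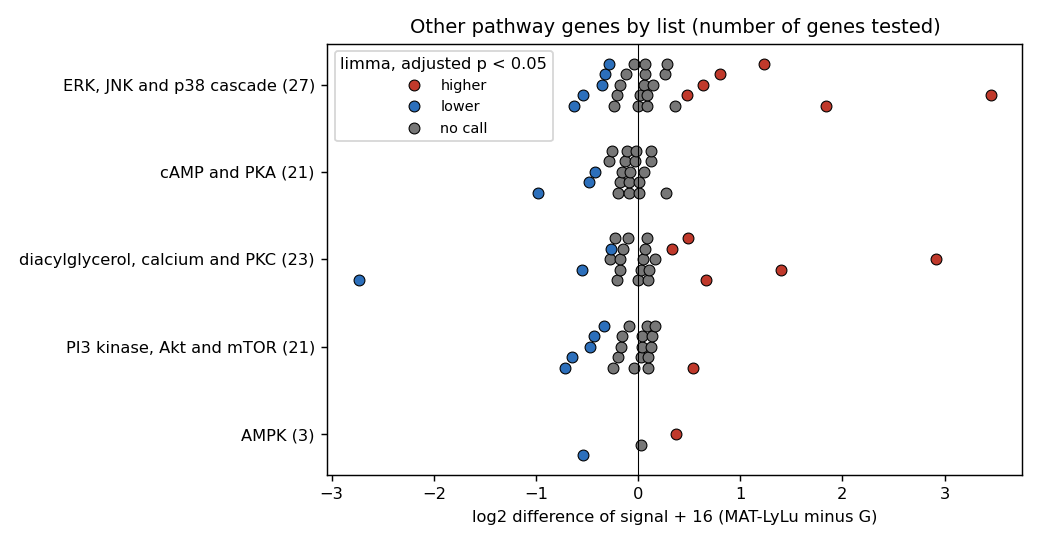
Log2 difference (MAT-LyLu minus G, horizontal axis) of the tested genes in 5 lists of pathway partners outside the kinase families, 1 point per gene, with the number tested in parentheses. Red and blue points passed limma at an adjusted p under 0.05. Dusp6 (3.45) and Marcks (2.92) lie farthest to the right and Pcp4 (-2.73) farthest to the left, and all 3 were under background in 1 line.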

How the data were processed

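The authors deposited 1 table of MAS5 signal intensities for 8799 probe sets on 4 arrays, per the submitters' processing notes; MAS5 makes 1 signal from the probes of each set. Not given in the sources used here: its version and its scaling target. Values in the deposited table were linear, and their 2% trimmed means differed by at most 7.83%, under the 10% limit for rescaling, so they were used as they stood. Symbols came from the platform annotation and, through gene identifiers, the GRCr8 RefSeq table, where all 108 members matched.

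Array controls (59) and the 25% of probe sets with the lowest mean log2(signal + 16) were left out. The other 6555 were fitted with limma 3.58.1 in R 4.3.3 (lmFit, eBayes with an intensity trend, MAT-LyLu against G, 2-sided, Benjamini-Hochberg), a fit checked on simulated data. A fold written "at least" sets the signals of a line that lay under background on both arrays at the level of each array. The other line was taken as measured. Every member may be named, with values per array for called members of 0.58 or more in log2 difference, the smallest p of each family, disagreeing probe sets and those nearest the threshold, and up to 3 genes per pathway list plus genes acting directly on a member. Probe sets are numbered by mean signal. The members and lists were chosen with earlier results of these data known. With 2 arrays per line, the number of arrays limits the precision. Alternatives changed the pseudocount, filter, scaling, variance trend, replicate block, floor and arrays.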

Additional observations from a re-analysis of the deposited data

How the results depend on the processing

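The counts of members called stayed within 1.5 times under all 15 alternatives. Leaving out 1 array at a time, where the lone array of a line is assumed to vary like the others, gave 12 to 18 higher and 9 to 11 lower. With the replicate number as a block, which the labels do not tie to a shared culture or day, 14 members were higher and 11 lower. All tested probe sets gave 951 and 1402 there, beside 891 and 1318 in the main fit. Deviations of same-numbered arrays correlated at 0.16. The block ended no member's call, but it ended that of Pebp1 among the pathway genes. Of the 24 called members 18 kept their call in every alternative that tested them, 6 lost it in at least 1, and none turned direction. A filter on the mean of the linear signals was added after seeing the data, because the planned filter left out Prkaa2. It gave 14 members higher and 12 lower, beside 908 and 1330 over all probe sets tested there. Prkaa2 cleared this filter only through its G signals, 4588 and 3772, beside 244 and 228 in MAT-LyLu. It was called in all 4 alternatives that tested it, this one included. These calls rest on signals under background in MAT-LyLu and are no independent support.

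The family medians, all near 0, moved beyond the spread between arrays in few settings. With quantile normalization they were 0.0052 for AMPK, 0.045 for the MAP kinases, -0.013 for the MAPK-activated kinases and scaffolds and 0.087 for PKA. With median scaling they were -0.0094 for the MAPK-activated kinases and scaffolds, 0.060 for PKA and 0.082 for PKC, and with cyclic loess 0.061 for PKA. Median scaling raised the difference of every probe set by the same 0.045. Which families counted as moved there thus depends on their spread between arrays alone. The median over all probe sets went from -0.021 to 0.024 with quantile normalization and to 0.0066 with cyclic loess. A floor at background gave 0.024 for both the CaM kinases and the MAP kinases. PKC and all probe sets that are no controls had the same median there. That value is the difference in mean log2 background level between the lines. A probe set under background on all 4 arrays takes exactly this value. Without single arrays the median of PI3 kinases and Akt ran from 0.040 to 0.14, and that of the MAPK-activated kinases and scaffolds from -0.13 to -0.038. Those of the ribosomal S6 kinase (-0.046 to 0.18), PKA (-0.0079 to 0.037) and the MAP kinases (-0.045 to 0.0025) took both signs, and those of the CaM kinases (-0.083 to -0.027), PKC (0.015 to 0.061) and AMPK (-0.070 to -0.026) kept theirs. The cause of the other shifts was not tested. Signal over background limits the rest: 32 members were under it on all 4 arrays, and 23 of the 25 untested members were among them.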
